A study of Mus musculus with 8 samples.

Results

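The core circadian clock genes Arntl, Clock, Per1, Per2, Per3, Cry1, Cry2, Nr1d1, Nr1d2 and Dbp were followed in RNA of the duodenum, the first segment of the small intestine. They were taken from the deposited table by gene symbol, which matched 10 of its 54532 genes, 1 row each. The study sequenced duodenal tissue of mice heterozygous for a global Zeb2 knockout (Zeb2+/-, named Zeb2 Mutation in the labels; 4 libraries) and of wild-type mice with both copies of Zeb2 (WT; 4 libraries), and addressed poor postnatal growth in a model of Mowat-Wilson syndrome. The sources used here do not give strain, age, sex, feeding state or the clock time at which tissue was taken. The labels do not name the animal behind each library, so p-values measure the spread between these 8 libraries, which can hold a technical part.

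The circadian clock is a feedback loop of transcription that runs in nearly every cell, with a period of about a day. ARNTL (also called BMAL1) and CLOCK bind E-box sequences as a pair and switch on Per, Cry, Nr1d1, Nr1d2 and Dbp; PER and CRY proteins return to block the pair, and NR1D1 and NR1D2 (REV-ERB alpha and beta) repress Arntl. In mouse tissues Arntl messenger RNA therefore peaks at nearly the opposite time of day from Nr1d1 and Dbp, and in the gut the phase also follows the time of feeding. Levels of these genes in a single piece of tissue carry the time at which it was taken.

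RefSeq upstream windows on GRCm38.p6 were found for 9 of the 10 genes (Per2 is named only), 13 windows in all because Per1, Arntl and Clock have several annotated starts. The 250 bases before each start were searched on both strands for the E-box CACGTG, its variant CACGTT, the D-box form TTATGNAA that DBP and its relatives bind, and the half-site AGGTCA that is part of the NR1D1 element. The 4 windows below are examples with matches to these motifs. A window each of Cry2, Nr1d2 and Clock also held a match and is not shown. Capitals mark matches, each line runs 5′ to 3′ on the strand of the gene and ends 1 base before the start, and AACGTG and TGACCT are CACGTT and AGGTCA read on the other strand.
Per1 (chr11:69098699-69098948, plus strand): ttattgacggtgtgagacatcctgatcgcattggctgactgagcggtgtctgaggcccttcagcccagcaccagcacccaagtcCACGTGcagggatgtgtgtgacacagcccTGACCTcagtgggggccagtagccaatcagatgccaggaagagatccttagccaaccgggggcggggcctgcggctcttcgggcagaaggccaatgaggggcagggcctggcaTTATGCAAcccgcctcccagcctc
Per3 (chr4:151044666-151044915, minus strand): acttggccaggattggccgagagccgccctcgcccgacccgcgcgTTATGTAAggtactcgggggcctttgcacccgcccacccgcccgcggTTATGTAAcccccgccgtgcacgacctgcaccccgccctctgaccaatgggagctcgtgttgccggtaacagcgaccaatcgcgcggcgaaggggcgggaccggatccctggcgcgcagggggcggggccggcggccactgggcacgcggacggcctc
Cry1 (chr10:85185055-85185304, minus strand): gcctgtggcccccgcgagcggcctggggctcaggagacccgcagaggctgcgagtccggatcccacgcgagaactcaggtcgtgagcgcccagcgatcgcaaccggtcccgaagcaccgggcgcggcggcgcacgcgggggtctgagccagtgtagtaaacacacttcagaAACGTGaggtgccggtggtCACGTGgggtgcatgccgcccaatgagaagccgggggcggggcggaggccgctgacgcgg
Nr1d1 (chr11:98775378-98775627, minus strand): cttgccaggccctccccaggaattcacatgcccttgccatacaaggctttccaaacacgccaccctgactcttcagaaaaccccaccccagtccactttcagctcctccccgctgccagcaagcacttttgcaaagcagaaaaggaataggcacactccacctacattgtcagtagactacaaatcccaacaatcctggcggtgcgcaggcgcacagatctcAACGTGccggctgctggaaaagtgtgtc
The Per1 window holds an E-box 166 to 161 bases before the start and a D-box form 24 to 17 bases before it. Per3 holds a pair of D-box forms, Cry1 an E-box and a variant, and Nr1d1 a variant 28 to 23 bases before the start. No match overlapped another. CACGTG lay in 2 of the 13 windows and in 6.02% of 32817 mouse windows of the same length. CACGTT lay in 3 of 13 (Cry1, Cry2 and Nr1d1) and 3.85%, and TTATGNAA in 2 of 13 and 3.07%. AGGTCA lay in 3 of 13 (a window each of Per1, Nr1d2 and Clock) and 14.0%. The windows of Arntl and Dbp held none of the 4 motifs. The Dbp window (45704997 to 45705246) runs into the gene, which the deposited values list from 45705088. For Cry2, Nr1d1, Nr1d2 and Dbp, a short stretch just after the RefSeq start was not found in the gene's transcripts in the GENCODE annotation. The motif matches describe letters in 250 bases and were not tested for binding.

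Reads assigned to genes numbered 13579347 to 16303910 per library in Zeb2+/- and 15780021 to 17137417 in WT. The values are FPKM, fragments per kilobase of gene, scaled by the authors for library size, so levels can be compared between genes. Zeb2 itself stood at 0.301 ± 0.146 FPKM in Zeb2+/- and 0.943 ± 0.192 FPKM in WT (SD, n = 4 each), with no overlap of the libraries. The total that the authors' scaling implies was 1.16, 0.832, 0.733 and 0.912 times the assigned reads in Zeb2+/- libraries 1 to 4 and 0.798 to 0.956 times in WT, so FPKM of Zeb2+/- library 1 are scaled low and those of library 3 high. Values as TPM, in which every library has the same total, are therefore given beside FPKM for several of the genes. Mitochondrially encoded genes took 7.28% to 8.76% of reads in Zeb2+/- and 4.88% to 5.48% in WT, and TPM of the other genes share what remains of the fixed total.

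All 10 clock genes exceeded the minimum mean of 1 FPKM and were tested with limma on log2(FPKM + 1) among 12190 genes. In Zeb2+/- duodenum 0 of the 10 passed an adjusted p of 0.05, while 3.24% of all genes tested did (2.77% lower and 0.468% higher). At an unadjusted p below 0.05, limma put 3 of the 10 apart, all of them lower (Per1, Per2 and Cry1), against 18.9% of all genes in either direction and 8.91% lower. Voom on rebuilt reads also called 0 of the 10 at an adjusted p of 0.05, and 202 of the 12190 genes. The log2 fold change was below 0 for 8 of the 10, against 49.7% of all genes, with a median of -0.24 for the clock genes and 0.00 for all genes tested. In bulk tissue fewer cells of a type and less RNA per cell cannot be told apart.

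**Figure D1:**
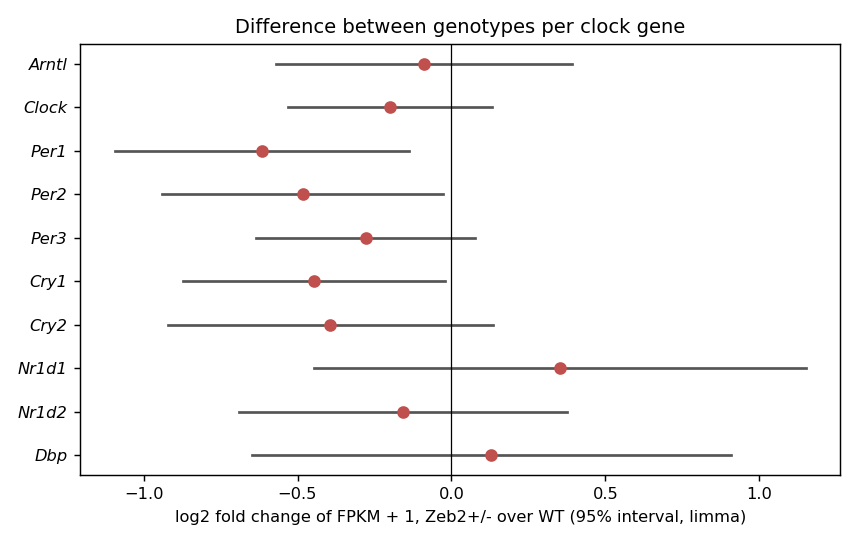
The log2 fold change of FPKM + 1 (Zeb2+/- over WT, x axis) is drawn for each clock gene (y axis) with limma's 95% interval. Points for Per1, Per2 and Cry1 lie at -0.62, -0.48 and -0.45 with intervals below 0, and the widest intervals belong to Nr1d1 (-0.45 to 1.15) and Dbp (-0.65 to 0.91).

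The activators came first. Arntl (ENSMUSG00000055116, chromosome 7, 113207465 to 113314126, plus strand) encodes the partner without which the loop stops in mice. It stood at 1.02, 2.42, 0.723 and 1.29 FPKM in Zeb2+/- libraries 1 to 4, against 1.70, 1.53, 1.10 and 1.43 FPKM in WT libraries 1 to 4. The lowest and the highest of the 8 values were both Zeb2+/- libraries, library 3 with 65 reads and library 2 with 206 reads, and WT lay between them. The means were 1.36 ± 0.743 FPKM in Zeb2+/- and 1.44 ± 0.252 FPKM in WT (SD, n = 4 each; log2 fold change -0.09, SE 0.21, limma adjusted p = 0.865). The sign depended on 1 library: without Zeb2+/- library 3 the log2 fold change was 0.05. Clock (ENSMUSG00000029238, chromosome 5, 76209868 to 76304792, minus strand), the partner of ARNTL, had 4.91, 6.997, 8.11 and 6.004 FPKM in Zeb2+/-, against 7.84, 6.96, 8.56 and 6.83 FPKM in WT. The groups overlapped, with 2 Zeb2+/- libraries below all WT libraries (log2 fold change -0.20, SE 0.15, limma adjusted p = 0.508; 95% interval -0.53 to 0.13). In mice Clock messenger RNA is known to vary less over the day than Arntl. The ratio of the highest to the lowest library was 1.74 for Clock, reached by 64.5% of all genes tested, and 3.35 for Arntl, reached by 19.5%. Both ratios pool the genotypes in FPKM, so scaling and read counts enter them (65 to 206 reads for Arntl, at least 1057 for Clock). Daily variation was not tested. Clock also shares bases on the same strand with the pseudogene Ube2n-ps1 (1.52 to 5.29 FPKM in Zeb2+/- and 1.44 to 5.01 FPKM in WT) and with Gm43658, and Arntl shares bases on the opposite strand with Gm45355, listed at 0 in all 8 libraries. Gm43658 was listed at most at 0.0212 FPKM in Zeb2+/- and 0.0665 FPKM in WT.

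The Per genes encode the proteins that, with CRY, close the loop. Per1 (ENSMUSG00000020893, chromosome 11, 69095217 to 69109960, plus strand), which also responds quickly to light and hormones, had the largest fold change of the 10. It stood at 5.38, 6.52, 9.20 and 6.24 FPKM in Zeb2+/-, against 7.68, 9.41, 13.9 and 13.6 FPKM in WT. Zeb2+/- libraries 1, 2 and 4 lay below every WT library and library 3 lay between WT libraries 1 and 2. The means were 6.84 ± 1.65 FPKM in Zeb2+/- and 11.1 ± 3.07 FPKM in WT (SD, n = 4 each), 61.4% of the WT level. The log2 fold change was -0.62 (SE 0.21), with a limma p of 0.0173 before and 0.168 after adjustment over all genes. Exact permutation of the 8 values (two-sided) gave p = 0.0571 for Per1, 0.114 for Per2 and for Cry1, and 0.171 to 0.857 for the other 7 genes, where the smallest possible is 0.0286.

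Per2 (ENSMUSG00000055866, chromosome 1, 91415982 to 91459324, minus strand), whose loss shortens and then abolishes the rhythm in mice, stood at 6.18, 7.01, 13.2 and 9.24 FPKM in Zeb2+/-, against 10.9, 12.9, 13.3 and 12.4 FPKM in WT. Again libraries 1, 2 and 4 lay below every WT library and library 3 among them. The log2 fold change was -0.48 (SE 0.20), with a limma p of 0.0403 before and 0.245 after adjustment. Per3 (ENSMUSG00000028957, chromosome 4, 151003652 to 151044665, minus strand), the member of the family least needed for the rhythm, stood at 2.92, 2.99, 5.10 and 3.33 FPKM in Zeb2+/-, against 4.77, 5.07, 4.12 and 3.98 FPKM in WT. Library 3 was the highest of all 8 and the other 3 Zeb2+/- libraries were the lowest (log2 fold change -0.28, SE 0.16, limma adjusted p = 0.381). Camta1 spans the whole of Per3 on the same strand and was listed at 0.444 to 0.849 FPKM in Zeb2+/- and 0.415 to 0.489 FPKM in WT.

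The cryptochromes are the strongest repressors of ARNTL and CLOCK. Cry1 (ENSMUSG00000020038, chromosome 10, 85131700 to 85185064, minus strand), whose peak comes late in the cycle, stood at 4.59, 5.70, 8.72 and 7.61 FPKM in Zeb2+/-, against 7.78, 8.41, 11.1 and 9.75 FPKM in WT. Only library 3 of the Zeb2+/- group reached into the WT range (log2 fold change -0.45, SE 0.19, limma p of 0.0421 before and 0.250 after adjustment). Cry2 (ENSMUSG00000068742, chromosome 2, 92403646 to 92434043, minus strand) stood at 2.02, 2.35, 4.90 and 3.65 FPKM in Zeb2+/-, against 3.88, 3.55, 6.20 and 4.16 FPKM in WT. The groups overlapped, with libraries 1 and 2 of Zeb2+/- lowest (log2 fold change -0.39, SE 0.23, limma adjusted p = 0.408). On the opposite strand D930015M05Rik overlaps Cry2 and was listed at 0 to 0.521 FPKM in Zeb2+/- and 0 to 0.557 FPKM in WT.

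Nr1d1 (ENSMUSG00000020889, chromosome 11, 98767932 to 98775333, minus strand), the repressor of Arntl and among the genes of largest daily swing in mouse tissues, stood at 20.7, 43.4, 60.9 and 38.4 FPKM in Zeb2+/-, against 36.4, 34.4, 36.9 and 16.6 FPKM in WT. In FPKM its 2 lowest libraries were WT library 4 and Zeb2+/- library 1, and the other 3 Zeb2+/- libraries lay above every WT library. Scaled to TPM, Nr1d1 stood at 58.4, 89.6, 110.5 and 89.4 in Zeb2+/-, against 93.8, 86.6, 81.4 and 38.6 in WT. On that scale only Zeb2+/- library 3 lay above every WT library. The means were 40.8 ± 16.5 FPKM in Zeb2+/- and 31.1 ± 9.74 FPKM in WT (SD, n = 4 each; log2 fold change 0.35, SE 0.35, limma adjusted p = 0.643). Thra runs on the opposite strand and shares 1075 bases with Nr1d1. It was listed at 14.0 to 24.3 FPKM in Zeb2+/- and 19.6 to 21.4 FPKM in WT, and the sources used here do not say whether the counting used strand. Nr1d2 (ENSMUSG00000021775, chromosome 14, 18204054 to 18239127, minus strand), which acts alongside Nr1d1, stood at 18.3, 19.0, 40.9 and 27.2 FPKM in Zeb2+/-, against 27.1, 26.9, 30.7 and 27.4 FPKM in WT. The WT libraries were close together and the Zeb2+/- libraries lay on both sides of them (log2 fold change -0.16, SE 0.24, limma adjusted p = 0.774).

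Dbp (ENSMUSG00000059824, chromosome 7, 45705088 to 45710203, plus strand) encodes a leucine zipper factor that carries the rhythm to output genes through D-boxes. It stood at 31.0, 21.1, 72.2 and 37.2 FPKM in Zeb2+/-, against 33.1, 37.4, 41.97 and 23.5 FPKM in WT. Zeb2+/- libraries 2 and 3 were the lowest and the highest of the 8, the reverse of their order for Arntl. The means were 40.4 ± 22.2 FPKM in Zeb2+/- and 34.01 ± 7.89 FPKM in WT (SD, n = 4 each; log2 fold change 0.13, SE 0.34, limma adjusted p = 0.882), and the sign turned without Zeb2+/- library 3 (-0.19) and without WT library 4 (-0.03). Sphk2 overlaps Dbp by 737 bases on the opposite strand and was listed at 22.4 to 37.6 FPKM in Zeb2+/- and 25.8 to 31.7 FPKM in WT.

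**Figure D2:**
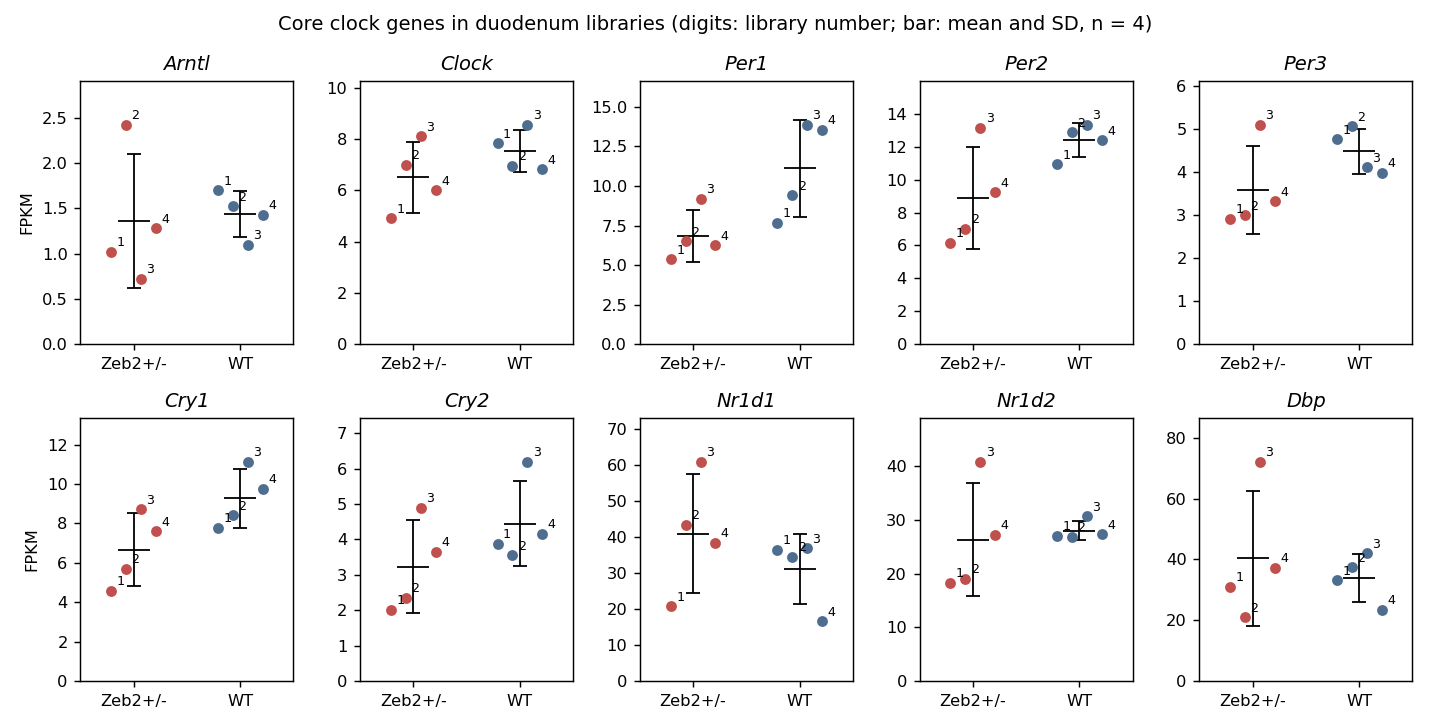
Each panel shows 1 clock gene with its FPKM (y axis, from 0) in the 4 Zeb2+/- libraries (red, left) and the 4 WT libraries (blue, right); digits give the library number and bars the mean and SD. Zeb2+/- library 3 is the highest of its group in every panel but Arntl, where it is the lowest at 0.723 FPKM.

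By mean level the genes fell into the same broad order in both genotypes. Nr1d1, Dbp and Nr1d2 were the most abundant per length, at 40.8, 40.4 and 26.4 FPKM in Zeb2+/- and 31.1, 34.01 and 28.0 FPKM in WT. Per2, Per1, Cry1 and Clock formed a middle group of 6.51 to 8.90 FPKM in Zeb2+/- and 7.55 to 12.4 FPKM in WT, and Per3, Cry2 and Arntl followed with 3.58, 3.23 and 1.36 FPKM in Zeb2+/- and 4.48, 4.45 and 1.44 FPKM in WT. Next neighbours in this order within a group differed by less than the larger of their SDs, except Cry1 and Clock in WT (9.27 ± 1.49 and 7.55 ± 0.809 FPKM) and Cry2 and Arntl in both genotypes.

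For 5 of the 10 genes the scaling of the libraries decided whether the genotypes overlapped. In FPKM 0 of the 10 genes had all Zeb2+/- libraries below all WT libraries, against 6.87% of all genes tested, and 0 had no overlap in either direction, against 14.5%. In TPM 5 did (Per1, Per2, Clock, Cry1 and Cry2), against 12.0% of all genes tested, and 0 had all above, against 3.04%. In TPM Per1 stood at 15.1, 13.5, 16.7 and 14.5 in Zeb2+/-, against 19.8, 23.7, 30.6 and 31.6 in WT, and was the only one of the 10 to pass limma there (log2 fold change -0.76, SE 0.16, adjusted p = 0.0481), where 2.70% of all genes passed and 2.58% passed lower. Per2 in TPM stood at 17.4, 14.5, 23.9 and 21.5 in Zeb2+/-, against 28.2, 32.4, 29.4 and 28.9 in WT (adjusted p = 0.0797). Cry1 in TPM stood at 12.9, 11.8, 15.8 and 17.7 in Zeb2+/-, against 20.04, 21.1, 24.6 and 22.7 in WT (adjusted p = 0.0797). For both, the highest Zeb2+/- library lay below the lowest WT library. Cry2 in TPM separated by a small margin, with a highest Zeb2+/- library of 8.89 and a lowest WT library of 8.92 (adjusted p = 0.217). Per3 overlapped on both scales, at 6.19 to 9.25 TPM in Zeb2+/- and 9.08 to 12.7 TPM in WT, and in TPM its highest library was WT library 2. Clock in TPM stood at 13.8, 14.5, 14.7 and 14.0 in Zeb2+/-, against 20.2, 17.5, 18.9 and 15.9 in WT, which left the 4 Zeb2+/- values nearly equal (adjusted p = 0.174). The median log2 fold change of all genes was -0.10 in TPM and 0.00 in FPKM. Relative to that median Per1 was -0.66 in TPM and -0.62 in FPKM. With mitochondrial genes left out of the TPM total, an alternative chosen after seeing the data, 0 of the 10 passed in limma (Per1 adjusted p = 0.0819). There 270 of 12157 genes passed.

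In Zeb2+/- the SD of log2(FPKM + 1) exceeded the size of the log2 fold change for Arntl, Dbp, Nr1d1, Nr1d2, Cry2, Per3 and Clock. It did not for Per1, Per2 and Cry1. In TPM the Zeb2+/- libraries deviated from their mean by -0.039 to 0.044 for Clock, against a log2 fold change of -0.32. The deviations were -0.29 to 0.22 for Per3 (fold change -0.42) and -0.41 to 0.34 for Cry2 (-0.55), all smaller than the fold change. For Arntl, Dbp, Nr1d1 and Nr1d2 the largest deviation in TPM exceeded the fold change. Zeb2+/- library 3 was the highest of its group for 9 of the 10 genes in FPKM and lowest for Arntl, where 37.3% of all genes tested were highest and 25.5% lowest in that library. In TPM it was highest for 8 of the 10 (Cry1 was highest in library 4) and again lowest for Arntl, where 13.1% of all genes were highest and 48.0% lowest. Zeb2+/- library 2 was the highest for Arntl and the lowest for Dbp on both scales. Zeb2+/- library 1 was lowest for 8 of the 10 in FPKM, where 42.4% of all genes were lowest in it, and for 2, Clock and Nr1d1, in TPM, where 20.9% were. WT library 3 was highest for 8 in FPKM, where 36.4% of all genes were highest in it, and for 2, Cry1 and Cry2, in TPM, where 15.2% were. WT library 4 was lowest for Clock, Nr1d1 and Dbp on both scales, and for 26.3% of all genes in FPKM and 32.9% in TPM.

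**Figure D3:**
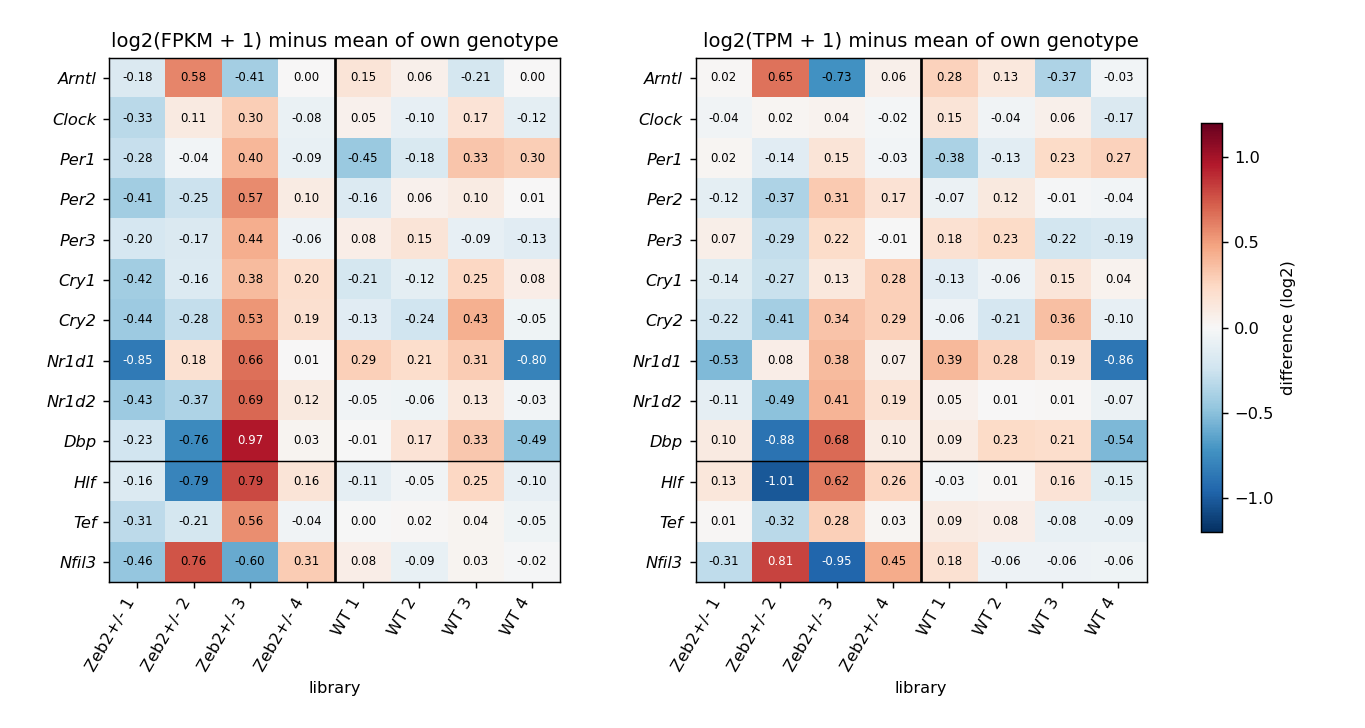
Colours and numbers give the log2 value of each gene (rows; core clock genes above the line, 3 related leucine zipper genes below it) in each library (columns) minus the mean of its own genotype, from FPKM (left) and TPM (right). Arntl and Nfil3 carry the opposite sign to Dbp and Hlf in Zeb2+/- libraries 2 and 3 on both scales, while the column of Zeb2+/- library 1 is negative throughout in FPKM and of both signs in TPM.

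A ratio of the FPKM of 2 genes in the same library is free of the library's scaling. Arntl stood at 3.30%, 11.5%, 1.002% and 3.45% of the Dbp level in Zeb2+/- libraries 1 to 4, against 5.13%, 4.08%, 2.62% and 6.09% in WT libraries 1 to 4. The lowest and highest ratios were both Zeb2+/- libraries, with the 4 WT libraries between them. On the log2(FPKM + 1) scale, where the added 1 leaves some of the scaling in and compresses Arntl, the difference Arntl minus Dbp was -4.04 ± 1.11 in Zeb2+/- and -3.82 ± 0.43 in WT (SD, n = 4 each). Arntl was 4.93%, 5.59%, 1.19% and 3.35% of Nr1d1 in Zeb2+/-, against 4.67%, 4.44%, 2.98% and 8.64% in WT. Zeb2+/- library 3 was again the lowest, and WT library 4, where Nr1d1 was low, was the highest. Clock, in contrast, kept within 159.1% to 233.7% of Per3 in Zeb2+/- and 137.3% to 207.8% in WT. No test was made of these ratios.

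**Figure D4:**
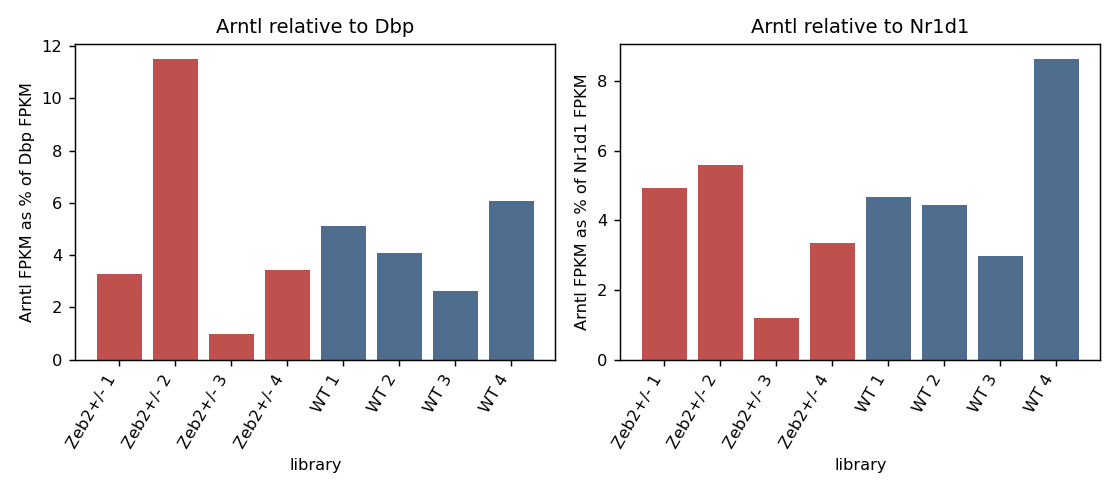
Bars give the FPKM of Arntl as a percentage of Dbp (left) and of Nr1d1 (right) in each Zeb2+/- library (red) and each WT library (blue). Zeb2+/- library 3 has the lowest bar in both panels, at 1.002% and 1.19%, and the highest bars are Zeb2+/- library 2 (11.5%) and WT library 4 (8.64%).

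In FPKM the spread within a genotype was larger in Zeb2+/- for 9 of the 10 genes, all but Per1, and for 82.9% of all genes tested. The SD of log2(FPKM + 1) over the 4 Zeb2+/- libraries was 0.72 for Dbp and 0.63 for Nr1d1, values reached by 7.61% and 11.1% of all genes, and their SD over the 4 WT libraries was 0.35 and 0.54, reached by 9.67% and 4.74%. Nr1d2 had an SD of 0.52 in Zeb2+/- and 0.09 in WT. The median gene had 0.29 in Zeb2+/- and 0.15 in WT.

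Genes were also compared by their deviations from the genotype mean of log2(FPKM + 1) over the 8 libraries, which share library, depth and scaling; these correlations are descriptions without a test. Among 10835 other protein-coding genes tested, the 5 most like Arntl were C6, Pop7, Lsm12, Slc28a3 and Gdpgp1 (r = 0.97 to 0.98), and the 5 most opposite were H3f3b, Zbtb17, Phf14, Cdc42se1 and Hnrnph2 (r = -0.96 to -0.99). The 5 most like Dbp were Usp28, Bahd1, Zbtb21, Rdh16f2 and Yap1 (r = 0.96 to 0.97), and the most opposite were Fastkd2, Skiv2l2, Prdx4, Olfm4 and Nsa2 (r = -0.97 to -0.99). For Nr1d1 the nearest were Polr3a, Fbxl18, Bcorl1, Ankzf1 and Sypl2 (r = 0.97 to 0.99), and the most opposite were Hmgxb4, Defa23, Lzts2, Gle1 and Tra2b (r = -0.96 to -0.97). For Per2 the nearest were Ssx2ip, Odf2l, Kcmf1, Ammecr1l and Spsb2 (r = 0.98 to 0.99), and the most opposite were Actr8, Dis3, Tmem5, Fam110a and Parva (r = -0.97). No gene of the 3 clock lists was among the 5 nearest or the 5 most opposite for any of these 4 members.

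Within the clock lists, the deviations of Dbp went with those of Hlf (r = 0.93), Tef (0.86), Nr1d2 (0.86), Ciart (0.84), Per3 (0.83) and Per2 (0.81), and opposite to Arntl (-0.79). HLF and TEF are the close relatives of DBP, and Ciart encodes a repressor of the loop. Arntl went with Nfil3 (r = 0.88), whose protein competes with DBP at D-boxes, and opposite to Hlf (-0.90). Hlf, Tef, Ciart and Nfil3 were chosen after their values were seen. In TPM the values were 0.92 for Dbp with Hlf, 0.87 for Arntl with Nfil3 and -0.76 for Arntl with Dbp. Without Zeb2+/- libraries 2 and 3, over the other 6 libraries, they were 0.69, 0.41 and -0.20 in FPKM, so the opposition of Arntl and Dbp rested on those libraries. Without them Dbp gave 0.57 with Tef, 0.45 with Nr1d2, 0.23 with Ciart, 0.47 with Per3 and 0.40 with Per2, and Arntl gave -0.41 with Hlf, so these likenesses too were carried largely by Zeb2+/- libraries 2 and 3. Pairs of Per2 varied. With Nr1d2 it gave 0.97 in FPKM, 0.95 in TPM and 0.92 in FPKM without those libraries, and with Cry1 0.90, 0.77 and 0.91. With Per3 it gave 0.80, 0.63 and 0.20, and with Ciart 0.62, 0.60 and -0.62. The other 6 libraries include Zeb2+/- library 1, whose FPKM are scaled low. Nfil3 itself stood at 1.19, 4.11, 0.991 and 2.73 FPKM in Zeb2+/-, against 2.26, 1.90, 2.16 and 2.06 FPKM in WT. Hlf stood at 2.91, 1.52, 6.57 and 3.86 FPKM in Zeb2+/-, against 4.63, 4.88, 6.22 and 4.68 FPKM in WT. For both, the extremes were Zeb2+/- libraries 2 and 3, in opposite order. Arntl did not run opposite to Nr1d1, with r = -0.02 in FPKM, -0.10 in TPM and 0.20 in FPKM without Zeb2+/- libraries 2 and 3. Dbp with Nr1d1 gave 0.61 in FPKM, 0.48 in TPM and 0.90 in FPKM without those libraries.

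Beyond the core, 22 genes that modify the loop were examined (kinases, ubiquitin ligases, corepressors and nuclear receptors among them); 17 exceeded the FPKM minimum and 0 passed limma, against 3.24% of all genes. At an unadjusted p below 0.05, limma put 4 of the 17 apart, 3 lower and 1 higher, against 18.9% of all genes. The list's median log2 fold change was 0.03, and that of all genes 0.00. Gsk3b, a kinase that marks several clock proteins for turnover, stood at 5.09, 8.23, 9.30 and 9.30 FPKM in Zeb2+/-, against 11.9, 10.6, 12.1 and 10.1 FPKM in WT, with no overlap (log2 fold change -0.47, SE 0.18, limma adjusted p = 0.202). Hdac3, the deacetylase that works with NR1D1 and its corepressor, was 19.2, 22.5, 22.1 and 21.3 FPKM in Zeb2+/-, against 17.0, 17.2, 18.6 and 17.9 FPKM in WT, also with no overlap (0.26, SE 0.10, limma adjusted p = 0.217; 0.0342 with array weights). In TPM the Hdac3 libraries overlapped, at 40.2 to 54.03 in Zeb2+/- and 40.9 to 43.8 in WT (log2 fold change 0.16, limma adjusted p = 0.482). That corepressor, Ncor1, averaged 15.5 ± 4.05 FPKM in Zeb2+/- and 21.2 ± 2.82 FPKM in WT (SD, n = 4 each; limma adjusted p = 0.246). Csnk1e, a kinase of PER proteins, averaged 1.29 ± 0.323 FPKM in Zeb2+/- and 1.76 ± 0.259 FPKM in WT (limma adjusted p = 0.326). Below the minimum, Rora, a nuclear receptor, averaged 0.159 ± 0.0841 FPKM in Zeb2+/- and 0.473 ± 0.1001 FPKM in WT with no overlap (limma adjusted p = 0.180 in a fit of all genes above 0).

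Of 18 genes known to cycle in many mouse tissues, 16 exceeded the minimum. In limma 1 of the 16 passed lower and 0 higher, against 2.77% and 0.468% of all genes. Fold changes below 0 on the log2 scale were found for 14 of the 16, against 49.7% of all genes, and the median was -0.19. The gene that passed was Fmo2, a flavin monooxygenase, at 1.69, 1.15, 1.84 and 1.42 FPKM in Zeb2+/-, against 3.97, 2.66, 4.32 and 6.90 FPKM in WT (log2 fold change -1.07, SE 0.22, limma adjusted p = 0.0335). Its call was lost without WT library 1, 3 or 4 (limma adjusted p = 0.0968, 0.0972 and 0.0558), without Zeb2+/- library 2, 3 or 4 (0.0798, 0.0608 and 0.0802), and in 5 other alternatives, at adjusted p from 0.0518 (quantile normalization) to 0.0910. Tspan4, a tetraspanin, averaged 3.24 ± 1.09 FPKM in Zeb2+/- and 6.13 ± 0.713 FPKM in WT with no overlap in FPKM (limma adjusted p = 0.0628; 0.00566 with array weights, 0.0181 without Zeb2+/- library 1, 0.0292 without Zeb2+/- libraries 1 and 3). In TPM the Tspan4 libraries overlapped, at 3.56 to 12.7 in Zeb2+/- and 11.5 to 16.2 in WT (limma adjusted p = 0.149), and voom gave an adjusted p of 0.212. Wee1, a kinase that holds the entry to mitosis and a known target of the clock, averaged 8.04 ± 1.84 FPKM in Zeb2+/- and 12.8 ± 2.99 FPKM in WT (limma adjusted p = 0.148; 0.0318 in TPM and 0.0570 in TPM without mitochondrial genes). Por, the reductase of microsomal P450 enzymes, averaged 97.4 ± 41.6 FPKM in Zeb2+/- and 166.4 ± 51.1 FPKM in WT with no overlap (limma adjusted p = 0.276). Pdk4, a kinase of fasting metabolism, averaged 15.5 ± 4.08 FPKM in Zeb2+/- and 27.9 ± 15.7 FPKM in WT (limma adjusted p = 0.352). Below the minimum, Lonrf3 averaged 0.261 ± 0.103 FPKM in Zeb2+/- and 0.519 ± 0.170 FPKM in WT (limma adjusted p = 0.408 in a fit of all genes above 0).

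**Figure D5:**
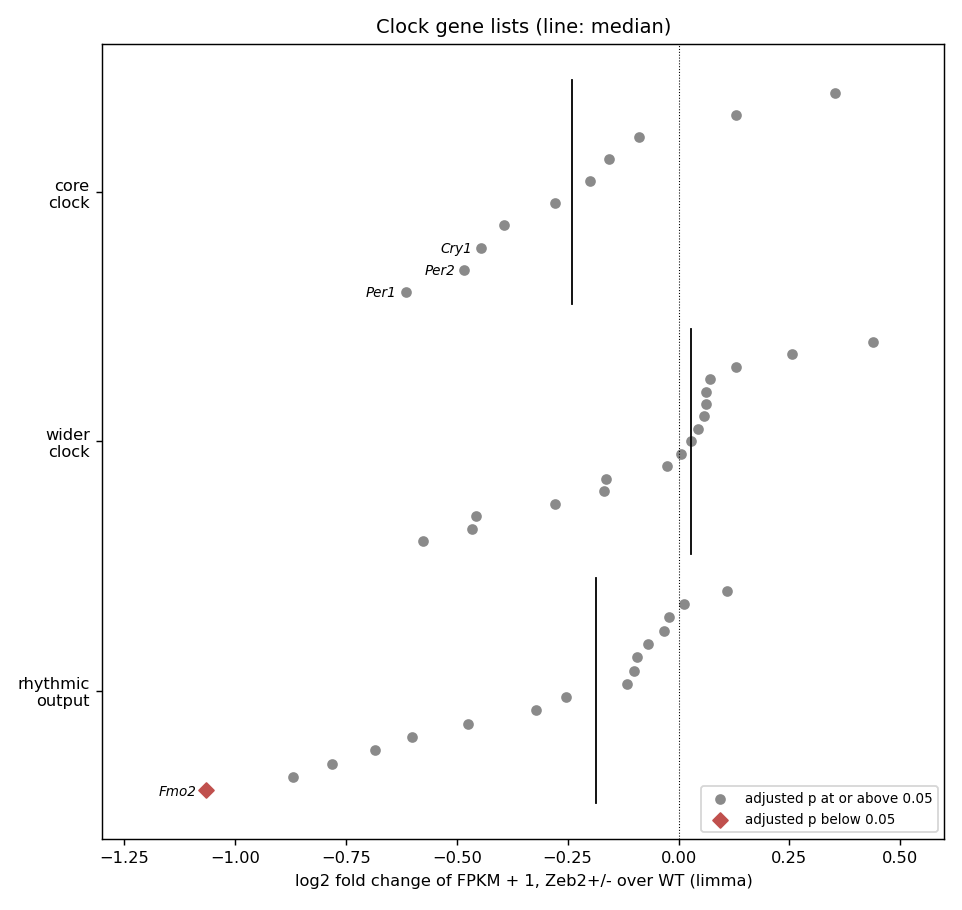
Points give the log2 fold change of FPKM + 1 (x axis, Zeb2+/- over WT) of each gene above the FPKM minimum in 3 lists (y axis: 10 core clock, 17 wider clock and 16 rhythmic output genes, spread vertically by rank), with the median of each list as a line at -0.24, 0.03 and -0.19. Names mark core clock genes with an unadjusted p below 0.05 and Fmo2, the one gene with an adjusted p below 0.05.

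Markers of other cells moved between the genotypes in the same libraries. Over all genes tested, 2.77% passed the threshold lower and 0.468% higher. An unadjusted limma p below 0.05 was reached by 18.9% in either direction. The libraries of the genotypes did not overlap for 14.5% in either direction. Markers of the duodenal epithelium were present in every library (12 enterocyte markers, summed to 14999 to 46918 FPKM in Zeb2+/- and 24065 to 35211 FPKM in WT), with 0 of 12 past the threshold and the lowest and highest sums in Zeb2+/- libraries 1 and 3. Fibroblast markers summed to 26.9 to 66.2 FPKM in Zeb2+/- and 95.6 to 139.3 FPKM in WT, and 6 of 9 passed lower. Endothelial markers summed to 4.57 to 10.1 FPKM in Zeb2+/- and 20.8 to 24.3 FPKM in WT (5 of 6 lower), and macrophage markers to 7.48 to 33.6 FPKM in Zeb2+/- and 75.2 to 84.5 FPKM in WT (3 of 5 tested lower). Smooth muscle markers summed to 279.3 to 683.4 FPKM in Zeb2+/- and 218.6 to 279.4 FPKM in WT, with 0 of 7 tested past the threshold, although all 7 had a log2 fold change above 0, 5 an unadjusted limma p below 0.05 and 5 all Zeb2+/- libraries above all WT libraries. Enteric neuron markers summed to 10.9 to 30.6 FPKM in Zeb2+/- and 7.45 to 9.47 FPKM in WT, with 0 of 3 tested past the threshold and 3 of 3 above 0 at an unadjusted limma p below 0.05. Paneth cell markers summed to 174.4 to 356.9 FPKM in Zeb2+/- and 1053 to 2027 FPKM in WT (5 of 5 lower), and plasma cell markers to 72.2 to 458.4 FPKM in Zeb2+/- and 1250.4 to 1978 FPKM in WT (2 of 4 lower). Of goblet, T cell and B cell markers 0 of 5, 2 of 4 (both lower) and 0 of 4 passed. B cell markers summed to 129.0, 2.06, 1.11 and 86.0 FPKM in Zeb2+/- libraries 1 to 4, and to 4.10 to 40.2 FPKM in WT. All 8 acinar markers of the pancreas were lower, at 0.0982 to 5.97 FPKM in Zeb2+/- and 148.4 to 2265 FPKM in WT, and each was at 0 in at least 1 library. The part of these shifts in the clock gene values was not tested.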

How the data were processed

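RNA of the duodenum was sequenced from poly-A selected, directional libraries, per the labels' protocols. The submitters' processing notes name GRCm38 (mm10), featureCounts 1.5.0-p3 and HISAT2 2.0.5; the sources used here do not give the strand setting, annotation release or filters. The deposited values are FPKM, as the authors scaled them. Reads were rebuilt by multiplying FPKM by gene length and dividing by the value of 1 read in each library: within 0.01 read, 100% of values above 0 came out whole.

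Values were analysed as log2(FPKM + 1) with limma 3.58.1 in R 4.3.3 (lmFit, eBayes with trend and robust), genotype as the only term, on 12190 genes with a mean of at least 1 FPKM, two-sided, Benjamini-Hochberg adjusted over all of them, threshold 0.05. The fit was tested on simulated reads with equal spread in both genotypes and even scaling. That setting does not cover the uneven spread and scaling of these libraries. Zeb2 lies below the minimum. The members and lists were chosen with earlier results of these data known. Named genes are the 10 members, list genes past the threshold or among the 5 of smallest p per list, the 5 genes most and least like Arntl, Dbp, Nr1d1 and Per2 in FPKM deviations, genes overlapping a member, and Zeb2. The 5 of smallest p were taken among genes above the minimum, and Rora and Lonrf3, which lie below it, are named besides. Hlf, Tef, Ciart and Nfil3 fall outside this rule and were named after their values were seen. A gene of the lists that the rule would name is not reported here.

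Alternatives were a pseudocount of 0.1 or 5, no filter or a minimum of 5 FPKM, TPM (with or without mitochondrial genes), median of ratios, quantiles, array weights, voom on rebuilt reads, plain eBayes, a replicate block, and leaving out libraries.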

Additional observations from a re-analysis of the deposited data

Results flagged for a closer look

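In 22 sets of 4 libraries (the 10 clock genes and Zeb2 in each genotype), the gap of the highest or lowest library to its neighbour was compared with the whole range by Dixon's criterion at 95%, which chance passes in about 1 of 20 groups. It was passed by 2. Nr1d1 in WT library 4 stood at 16.6 FPKM, below the other 3 WT libraries at 34.4 to 36.9 FPKM. Nr1d2 in WT library 3 stood at 30.7 FPKM, above the other 3 WT libraries at 26.9 to 27.4 FPKM. In TPM Nr1d2 in WT library 3 stood at 67.7, within the 63.9 to 69.7 of the other 3 WT libraries, so it stood apart in FPKM only. Nr1d1 in WT library 4 stood at 38.6 in TPM, still below the other 3 WT libraries at 81.4 to 93.8.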

How the results depend on the processing

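The count of clock genes past the threshold was 0 in the reported test and in 19 of 21 alternatives. It was 1 under TPM scaling (Per1) and 1 with array weights (Per2, log2 fold change -0.43, limma adjusted p = 0.0482). The count of all genes past the threshold was 395 as reported, 1187 with array weights, 157 with a mean of at least 5 FPKM, 202 with voom on rebuilt reads, and 218 to 487 without 1 library (218, 253 and 225 without WT library 1, 2 and 4). Of these, 57 were higher and 338 lower as reported, 493 and 694 with array weights, 15 and 314 in TPM, and 86 and 312 after quantile normalization. Per1, Per2, Per3, Clock, Cry1, Cry2, Nr1d1 and Nr1d2 kept the sign of their fold change in every alternative that gave a value. The fold change of Arntl turned to 0.20 without Zeb2+/- libraries 1 and 3, and ranged from -0.28 to 0.047 without 1 library (0.047 without Zeb2+/- library 3). That of Dbp turned to -0.24 without Zeb2+/- libraries 1 and 3, and ranged from -0.19 to 0.38 without 1 library. Without 1 library Per1 ranged from -0.76 to -0.51, with a lowest adjusted p of 0.113, and Per2 from -0.67 to -0.35, with a lowest adjusted p of 0.0546. Deviations of same-numbered libraries of the 2 genotypes correlated at 0.24, -0.16, 0.33 and -0.19. The labels do not say whether such libraries share more than a number, and these correlations cannot decide it. With the replicate block 299 genes and 0 clock genes passed. Arntl, Per3 and Cry2 have no value with a minimum of 5 FPKM. The cause of these changes was not tested. Depth limits Arntl most, which rested on 65 to 206 reads in Zeb2+/- and 108 to 193 in WT.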
